A study of Mus musculus with 10 samples.

Results

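The 10 genes described here belong to the cytosolic heat shock machinery and were followed through 3 states of mouse muscle stem cells: Hspa1a, Hspa1b, Hspa8 and Hsph1 of the HSP70 family, their partners Dnajb1 and Bag3, the HSP90 genes Hsp90aa1 and Hsp90ab1, and the small heat shock proteins Hspb1 and Hspb8. They were chosen by gene symbol, and all 10 were present among the 12803 genes of the table. The cells came from young male C57BL/6 mice and had been sorted as VCAM+ cells without CD45, CD31 or Sca1 on their surface, with 1 animal behind each library. In 4 libraries the cells had spent 24 h in culture with Tubastatin A at 40 µM (TubA, n = 4), in 3 they had spent 24 h with the solvent DMSO (vehicle, n = 3), and in 3 they were taken at 0 h (fresh, n = 3). The labels name vehicle as the treatment of the fresh cells too, so time sets those groups apart. Both cultured groups were kept in medium with 10% horse serum on plastic coated with matrix protein, and 1 dose at 1 time was tested. TubA inhibits HDAC6, a deacetylase that acts on tubulin and on HSP90 and binds ubiquitin chains.

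Heat shock proteins of the HSP70 family bind unfolded stretches of other proteins in a cycle driven by ATP. J-domain proteins such as DNAJB1 deliver the client and start the cycle, and nucleotide exchange factors such as BAG3 and HSPH1 end it by releasing ADP. HSP90 takes over clients that are close to their final shape, and small heat shock proteins hold unfolded clients without ATP. In muscle, BAG3, HSPB8 and HSP70 form a complex that passes damaged proteins of the contractile apparatus to autophagy. Most of these genes are switched on by the transcription factor HSF1, which binds repeats of a short inverted motif, the heat shock element.

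Promoter sequence is shown for the pair of inducible HSP70 genes, which are near copies of each other, and for both small heat shock proteins, so that the values further on can be set beside the letters. RefSeq promoters (GRCm38.p6, 250 bases before to 50 after the start) matched 7 of the 10 genes, and Hspa8, Hsp90aa1 and Hsp90ab1 were not matched. Both strands were searched for a pair of inverted units of the heat shock element, GAANNTTC or TTCNNGAA, where N is any base; these 2 forms can overlap. Capitals mark a match in the 130 bases before the start, each printed 5′ to 3′ on the strand of the gene.
Hspa1b, chr17:34959239-34959368, minus strand: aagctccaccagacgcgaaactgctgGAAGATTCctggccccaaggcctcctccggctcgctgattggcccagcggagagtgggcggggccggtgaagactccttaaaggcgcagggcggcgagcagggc
Hspa1a, chr17:34972157-34972286, minus strand: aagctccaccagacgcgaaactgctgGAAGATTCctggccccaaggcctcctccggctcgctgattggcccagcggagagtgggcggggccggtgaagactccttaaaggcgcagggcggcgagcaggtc
Hspb1, chr5:135887789-135887918, plus strand: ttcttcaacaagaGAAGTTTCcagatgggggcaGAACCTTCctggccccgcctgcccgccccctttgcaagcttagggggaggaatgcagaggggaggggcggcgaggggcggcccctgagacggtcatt
Hspb8, chr5:116422865-116422994, minus strand: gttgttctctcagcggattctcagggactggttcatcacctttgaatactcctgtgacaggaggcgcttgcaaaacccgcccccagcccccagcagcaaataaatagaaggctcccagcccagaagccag

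The promoters of Hspa1a and Hspa1b differed at 1 of these 130 bases and carried the same unit 104 bases before the start. Hspb1 carried 2 units, which began 117 and 97 bases before its start, and Hsph1 carried 3, of which 1 began 33 bases before 1 of its 2 annotated starts and 2, which overlap, began 37 and 42 bases after it. Hspb8 and Bag3 had a unit only after the start, 3 and 43 bases in, and Dnajb1 had none in the windows searched. Of 32851 RefSeq promoters, 12.8% held at least 1 unit in the 250 bases before the start and 1.46% held at least 2. In the full 300 bases 15.1% held at least 1, and 0.60% held 2 that overlap as in Hsph1. A match is a description of these letters and not a measured binding site.

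RNA was read as RPKM, reads per kilobase of gene on a library size scaled by the authors. Levels of different genes can thus be set side by side, but they depend on the exon length used for each gene. Recovered reads in the table numbered 37.52M to 55.26M per library, and 1 read in a gene of 1 kb was worth 0.0160 to 0.0339 RPKM. Log2 changes are differences of log2(RPKM + 1) from 1 limma model over all genes, with the standard error (SE) and the Benjamini-Hochberg adjusted p over 12803 genes; the added 1 RPKM understates the change of low genes. A gene passed at an adjusted p under 0.05. In the comparison of TubA with vehicle, 59.3% of all genes passed (29.6% higher and 29.7% lower), in vehicle against fresh 67.0% (32.0% higher and 35.0% lower) and in TubA against fresh 64.9% (29.8% higher and 35.2% lower).

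All 12 satellite cell markers were measured and had reads in every library. Their summed level was 489.9 to 576 RPKM in TubA, 674 to 692 RPKM in vehicle and 3316 to 3514 RPKM in fresh libraries. Summed endothelial markers (8 of 8 measured) reached 5.89 to 6.69 RPKM in TubA, 3.22 to 4.15 RPKM in vehicle and 37.2 to 47.4 RPKM in fresh libraries, and summed myofibre markers (12 of 14) 8.41 to 428 RPKM, 66.3 to 92.0 RPKM and 93.0 to 125 RPKM in the same order of groups. The 428 RPKM belonged to TubA replicate 2. Of the 9 fibroblast and tendon markers the sums were 11.2 to 22.0 RPKM in TubA, 104 to 119 RPKM in vehicle and 299.7 to 728 RPKM in fresh libraries, and of the 7 pericyte markers 11.5 to 62.1, 175 to 239 and 199 to 244 RPKM. Most of these vehicle sums came from Scx (65.7 to 75.6 RPKM) and Col3a1 (32.6 to 42.4 RPKM), and from Acta2 (174 to 239 RPKM). In TubA against vehicle 1 fibroblast and tendon marker rose, 2 fell and 6 did not pass. Of the pericyte markers 1 rose, 1 fell and 5 did not pass. The shares that passed were 33.3% and 28.6%, beside 59.3% of all genes. Among 8 immune markers 3 were measured, summing to at most 3.93 RPKM in TubA, 1.25 RPKM in vehicle and 8.83 RPKM in fresh libraries. Markers with no read in some vehicle libraries included Lyz2, Lum, Myh11 and Mb. Since the libraries are bulk RNA, fewer cells of a type and less RNA per cell cannot be told apart, and the part of other cell types in the results was not tested.

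With TubA 6 of the 10 heat shock genes stood above vehicle, and with vehicle all 10 stood below fresh cells, where 9 of them were very abundant. In vehicle against fresh, all 10 genes fell (median log2 change -4.25, with -0.03 over all genes), beside 35.0% of all genes that fell. In TubA against vehicle, 6 rose, none fell and 4 did not pass (median 1.27, with 0.02 over all genes), beside 29.6% of all genes that rose; the share that passed in either direction, 6 of 10, is near the 59.3% of all genes. The 6 were Hspa1b, Hspa1a, Hspb8, Dnajb1, Bag3 and Hspa8. In TubA against fresh, 9 fell and Hspb8 alone rose (median -3.67, with -0.03 over all genes), beside 35.2% of all genes that fell and 29.8% that rose. The 3 comparisons share libraries, so their counts are not independent of each other.

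**Figure D1:**
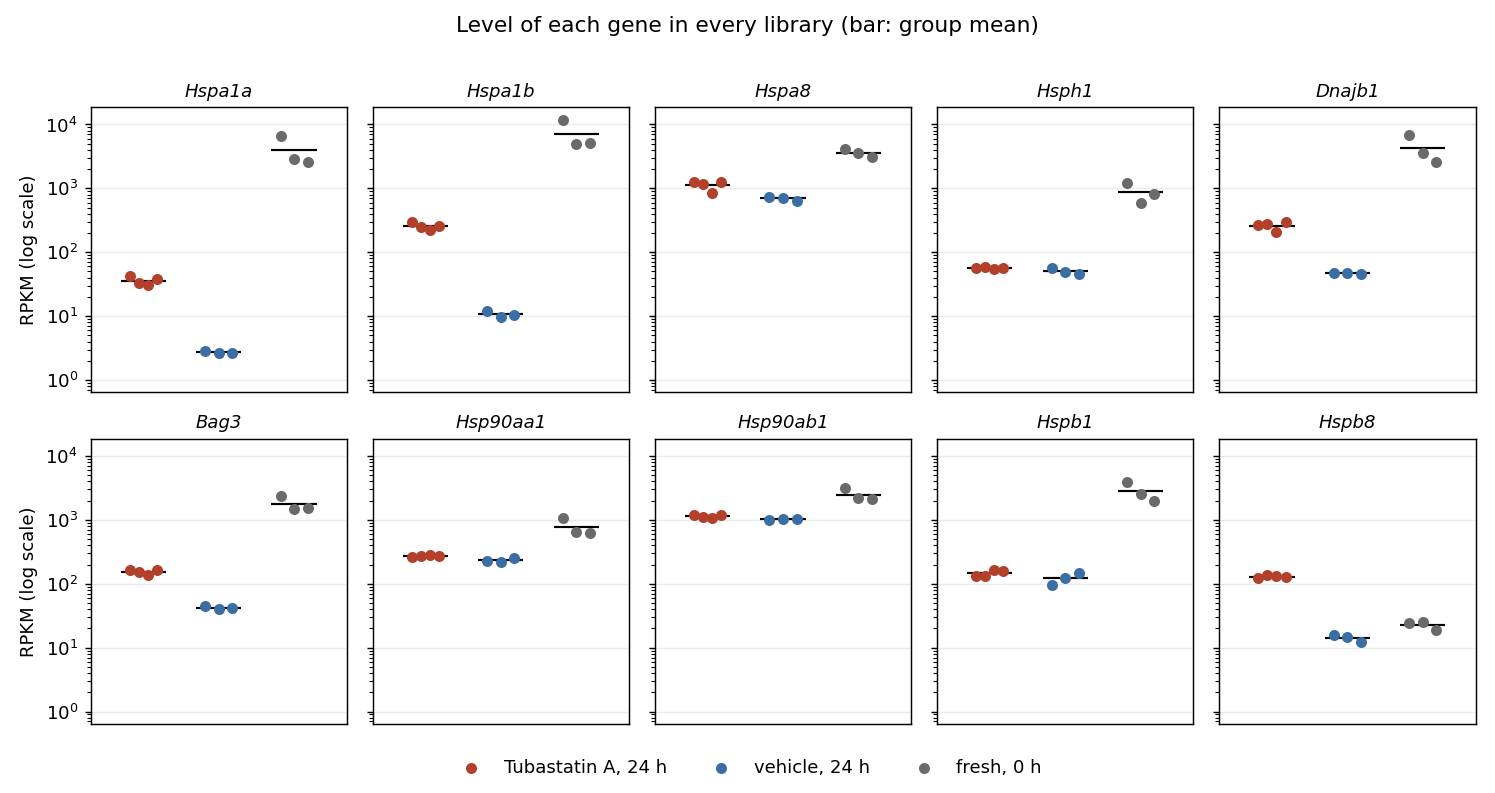
RPKM of the 10 genes in each library on a log scale, with TubA left of vehicle and vehicle left of fresh; bars are group means. Fresh libraries are highest for every gene but Hspb8, whose TubA libraries, 122 to 136 RPKM, lie above both other groups.

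HSP70 is encoded in mouse by the neighbouring genes Hspa1a (chr17:34969190-34972156, minus strand, GRCm38) and Hspa1b (chr17:34956436-34959238, minus strand), whose annotated bodies lie 9951 bases apart. Hspa1b measured 298, 252, 220.3 and 255 RPKM in the TubA libraries, 11.8, 9.79 and 10.5 RPKM in the vehicle libraries and 11594, 4884 and 5102 RPKM in the fresh libraries. The 3 groups did not overlap, and the fresh libraries stood highest by a wide margin. Hspa1b was 23.9-fold higher in TubA than in vehicle, with means of 256 ± 31.9 and 10.7 ± 1.04 RPKM (SD, n = 4 and 3), a log2 change of 4.45 (SE 0.26, adjusted p = 6.8e-08). Among all genes 3 had a higher log2 change in this comparison. Vehicle stood at 0.149% of the fresh mean (log2 change -9.15, adjusted p = 2.2e-10) and TubA at 3.56% (log2 change -4.69, adjusted p = 2.9e-08). TubA therefore held more Hspa1b RNA than vehicle while remaining far below fresh cells.

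Hspa1a, which encodes nearly the same protein, measured 41.7, 33.3, 30.8 and 37.6 RPKM with TubA, 2.82, 2.60 and 2.68 RPKM with vehicle and 6606, 2889 and 2623 RPKM in fresh cells. Again no library of one group reached into another, and the vehicle values rested on 331 to 402 recovered reads. The log2 change was 3.31 in TubA against vehicle (SE 0.26, adjusted p = 7.6e-07), where the means differed 13.3-fold, and -6.65 in TubA against fresh (adjusted p = 1.6e-09). In vehicle against fresh it was -9.96 (SE 0.28, adjusted p = 1.2e-10), the lowest of all 12803 genes, with Hspa1b second lowest. By mean level Hspa1b ranked 4461 and Hspa1a 7897 of all genes in vehicle cells, against 3 and 8 in fresh cells.

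Reads of this pair may not be separable. The coding sequences of the GENCODE transcripts are 99.4% identical, and 54.4% of the 150-base windows of the Hspa1b coding sequence occur unchanged in Hspa1a, whereas none of the 494 windows after the coding sequence do. How reads that fit both genes were counted is not given in the sources used here. The ratio of Hspa1b to Hspa1a was 7.17 ± 0.32 in TubA (n = 4), 3.96 ± 0.22 in vehicle (n = 3) and 1.80 ± 0.13 in fresh libraries (n = 3), with no overlap between groups. An exact two-sided permutation test of the log2 ratio, which was not planned, gave p = 0.0286 for TubA against vehicle and for TubA against fresh. For vehicle against fresh it gave 0.10 (0.0429, 0.0429 and 0.10 adjusted over the 3 tests). Since the groups did not overlap, each p was the smallest that the group sizes allow, so the test adds no support. Summed to a single feature, the pair measured 292 ± 36.5 RPKM in TubA and 13.4 ± 1.15 RPKM in vehicle, a 21.8-fold difference (log2 change 4.34, adjusted p = 9.7e-08), and 11233 ± 6034 RPKM in fresh cells. The rise with TubA and the fall in culture were therefore also seen in the sum, which does not depend on how counted reads were divided. If reads that fit both genes were left out, the sum lacks them too. The changes of each gene alone still depend on that handling.

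Hspa8 (chr9:40800984-40810087, plus strand), the constitutive HSP70 of unstressed cells, had smaller log2 changes than the inducible pair in every comparison. It measured 1272, 1149, 858 and 1239.9 RPKM in TubA, 726, 718 and 643 RPKM in vehicle and 4192, 3622 and 3044 RPKM in fresh libraries. The groups did not overlap, with TubA replicate 3 nearest to vehicle. The log2 change was 0.68 in TubA against vehicle (SE 0.22, adjusted p = 0.018), -2.37 in vehicle against fresh (adjusted p = 2.9e-06) and -1.68 in TubA against fresh (adjusted p = 3.3e-05). The call against vehicle was lost without TubA replicate 1, 2 or 4 or without vehicle replicate 2 or 3, at adjusted p = 0.052 to 0.077, while the log2 change stayed between 0.62 and 0.71.

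Hsph1 (chr5:149614287-149636376, minus strand), the HSP110 that serves HSP70 as a nucleotide exchange factor, did not pass between the cultured groups. Its levels were 57.3, 58.6, 55.6 and 57.3 RPKM in TubA, 56.6, 48.9 and 46.4 RPKM in vehicle and 1219, 589 and 805 RPKM in fresh libraries. Vehicle replicate 1 lay within the TubA range, and the log2 change was 0.18 (SE 0.20, adjusted p = 0.47). Against fresh cells Hsph1 fell by 4.02 on the log2 scale in vehicle (adjusted p = 1.4e-08) and fell by 3.84 in TubA (adjusted p = 1.5e-08), which left 5.81% of the fresh mean in vehicle and 6.56% in TubA.

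Both partners of HSP70 rose with TubA. Dnajb1 (chr8:83608193-83612653, plus strand), the J-domain protein that delivers clients to HSP70, measured 271, 276, 205 and 294 RPKM in TubA, 47.7, 48.0 and 45.4 RPKM in vehicle and 6818, 3559 and 2595 RPKM in fresh libraries. All 4 TubA libraries were above all 3 vehicle libraries, by 5.55-fold in the mean (log2 change 2.44, SE 0.27, adjusted p = 1.2e-05). Dnajb1 fell by 6.37 in vehicle against fresh (adjusted p = 4.4e-09) and by 3.94 in TubA against fresh (adjusted p = 1.6e-07). Of all genes 20 had a lower log2 change in vehicle against fresh.

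Bag3 (chr7:128523616-128546981, plus strand), which links HSP70 to small heat shock proteins and to autophagy, measured 167, 154, 137 and 163 RPKM in TubA, 44.5, 40.7 and 41.1 RPKM in vehicle and 2379, 1459 and 1549 RPKM in fresh libraries. The groups were apart by more than their spread: TubA averaged 155 ± 13.3 RPKM and vehicle 42.1 ± 2.09 RPKM (SD, n = 4 and 3), a log2 change of 1.85 (SE 0.17, adjusted p = 2.8e-06). Bag3 fell by 5.35 in vehicle (adjusted p = 5.0e-10) and by 3.49 in TubA (adjusted p = 1.0e-08), each against fresh.

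HSP90 RNA was abundant in every group. Hsp90ab1 (chr17:45567775-45573271, minus strand), the constitutive form, measured 1174, 1115, 1072 and 1180.4 RPKM in TubA, 1012, 1033 and 1043 RPKM in vehicle and 3124, 2203 and 2138 RPKM in fresh libraries. Its TubA libraries lay just above the vehicle libraries, and the log2 change of 0.14 did not pass (SE 0.21, adjusted p = 0.58). Hsp90aa1 (chr12:110690605-110702728, minus strand), the inducible form, measured 266, 273, 286 and 272 RPKM in TubA, 227, 217 and 253 RPKM in vehicle and 1082, 642 and 634 RPKM in fresh libraries. Its log2 change of 0.24 did not pass either (SE 0.19, adjusted p = 0.29), although it did at 0.027 when the spread was taken from the TubA and vehicle libraries alone. In vehicle against fresh Hsp90aa1 fell by 1.71 (adjusted p = 1.2e-05) and Hsp90ab1 by 1.25 (adjusted p = 3.1e-04), and in TubA against fresh they fell by 1.47 (adjusted p = 2.9e-05) and by 1.11 (adjusted p = 5.0e-04).

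The 2 small heat shock proteins went separate ways. Hspb1 (chr5:135887919-135889563, plus strand), or HSP25 in mouse, measured 130.4, 135, 166 and 161 RPKM in TubA, 95.8, 124 and 147 RPKM in vehicle and 3904, 2526 and 1979 RPKM in fresh libraries. The cultured groups overlapped, and the log2 change of 0.29 did not pass (SE 0.23, adjusted p = 0.31). Against fresh cells Hspb1 fell by 4.47 in vehicle (adjusted p = 2.1e-08) and by 4.19 in TubA (adjusted p = 2.5e-08). Hspb1 and Hsph1, the 2 of the 7 searched genes with more than 1 heat shock unit in the 300 bases, had no call between TubA and vehicle. Before its start Hsph1 had only 1 unit. Hsp90aa1 and Hsp90ab1, which had no call either, were not matched to a promoter. Any link between units and calls was not tested.

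Hspb8 (chr5:116408491-116422864, minus strand), the partner of BAG3, measured 122, 136, 130.5 and 129 RPKM in TubA, 16.0, 14.9 and 12.1 RPKM in vehicle and 24.2, 25.2 and 18.9 RPKM in fresh libraries. TubA libraries were the highest by far and close to each other, and vehicle libraries were the lowest. Hspb8 was 9.02-fold higher in TubA than in vehicle, with means of 129 ± 5.73 and 14.3 ± 2.02 RPKM (SD, n = 4 and 3), a log2 change of 3.09 (SE 0.13, adjusted p = 4.9e-09). It was 5.69-fold higher in TubA than in fresh cells (log2 change 2.47, SE 0.13, adjusted p = 1.5e-08), and 55 genes of the table had a higher log2 change there. In vehicle against fresh it fell by 0.63 (SE 0.14, adjusted p = 1.4e-03), a call that 2 other scalings of the libraries removed, at log2 changes of -0.06 and -0.05.

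**Figure D2:**
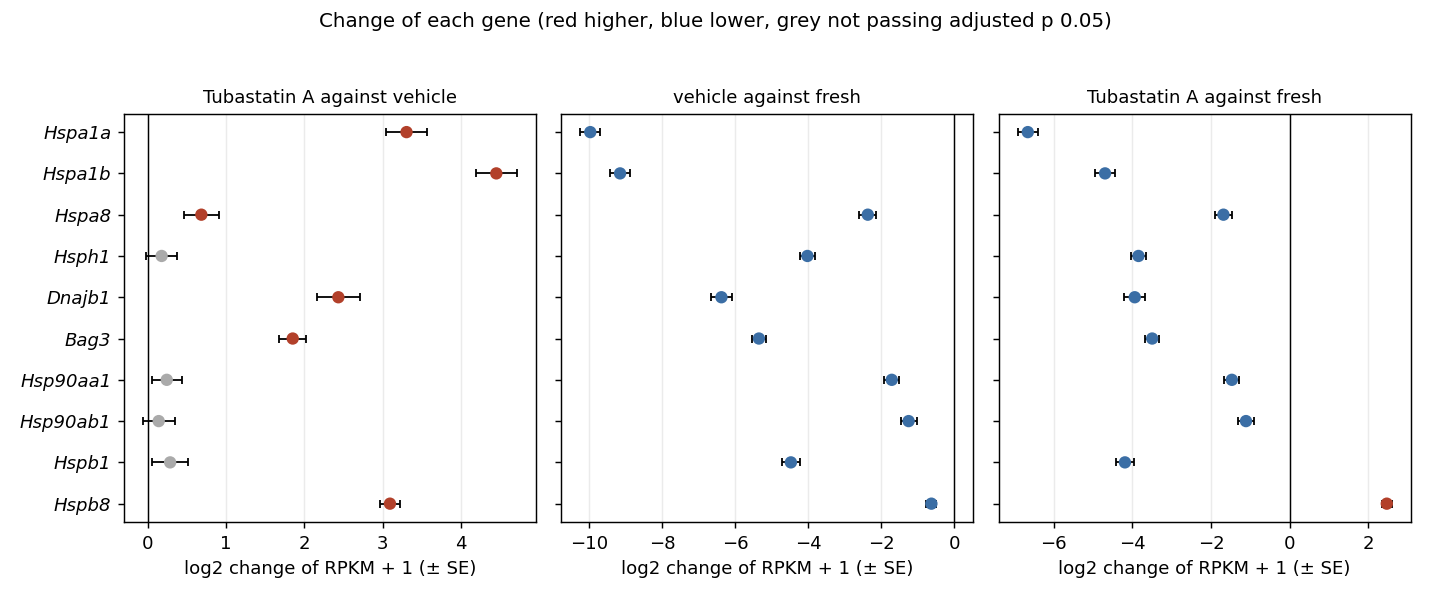
Log2 change of RPKM + 1 of the 10 genes with its standard error, in TubA against vehicle (left), vehicle against fresh (middle) and TubA against fresh (right); each panel has its own scale. On the left 6 genes lie clear of 0, between 0.68 and 4.45, all 10 lie below 0 in the middle, and Hspb8 alone lies above 0 on the right, at 2.47.

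The scale of the fresh libraries bears on every comparison with them. Reads in the table over the authors' scaled library size were at most 0.889 in TubA, 0.909 to 0.928 in vehicle and 1.39 to 1.41 in fresh libraries. Giving every library equal reads moved the median log2 change of all genes by 0.37 in vehicle against fresh and by 0.44 in TubA against fresh, and by 0.04 in TubA against vehicle. The added 1 RPKM damps this shift for low genes, so the medians understate the rescaling of abundant genes. Hsp90ab1, for example, moved from -1.25 to -0.64 in vehicle against fresh and from -1.11 to -0.42 in TubA against fresh. The split of calls in vehicle against fresh was then 6365 genes higher and 2905 lower, against 4096 higher and 4484 lower on the deposited scale. In TubA against fresh it was 6916 higher and 2590 lower, against 3811 and 4503. On that scale Hspb8 lay 0.39 under the median of all genes in vehicle against fresh and 2.73 above it in TubA against fresh, and Hsp90ab1 lay 0.98 and 0.83 under it. The other 8 genes kept their calls.

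The 10 genes took 1.28% to 1.48% of the reads in the table in TubA libraries and 0.83% to 0.87% in vehicle libraries, against 8.94%, 4.89% and 4.57% in fresh replicates 1, 2 and 3. Fresh replicate 1 stood apart: it was the highest of the fresh libraries for 9 of the 10 genes, all but Hspb8. Without fresh replicate 1 all 10 genes still passed in vehicle against fresh, with log2 changes of -9.54 for Hspa1a, -8.74 for Hspa1b, -5.98 for Dnajb1 and -5.13 for Bag3. In TubA against fresh all 10 passed as well, with -6.23, -4.29, -3.55 and -3.27 for the same genes and 2.51 for Hspb8. Among TubA libraries, replicate 3, which had the fewest reads, was the lowest for 7 of the 10 genes.

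Early response genes moved with the heat shock genes in the comparison with fresh cells. These 20 genes, such as Fos and Atf3, are known to be transcribed rapidly when tissue is taken apart. Fos, a subunit of the factor AP-1, measured 13.5, 13.1, 13.9 and 16.1 RPKM in TubA, 6.81, 7.37 and 7.27 RPKM in vehicle and 6344, 2789 and 2137 RPKM in fresh libraries, where replicate 1 was again the highest. The whole list summed to 1625 to 1942 RPKM in TubA and 853 to 916 RPKM in vehicle libraries, and to 38459, 22998 and 20253 RPKM in fresh replicates 1, 2 and 3. It took at most 0.652% of reads in TubA and 0.297% in vehicle libraries, and 4.34% to 8.37% in fresh libraries. All 20 fell in vehicle against fresh (median log2 change -5.22), beside 35.0% of all genes that fell. In TubA against vehicle 13 rose, 1 fell (Klf4, log2 change -0.28) and 6 did not pass (median 0.73). The share that passed there was 70%, beside 59.3% of all genes. The call on Klf4 was lost with equal reads per library and without TubA replicate 1 or 3 or any 1 vehicle replicate, at adjusted p = 0.053 to 0.089. Atf3, a stress-induced repressor, rose by 3.12 with TubA (22.2 ± 1.89 against 1.67 ± 0.331 RPKM, adjusted p = 2.0e-08). The part of this response in the heat shock results was not tested.

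**Figure D3:**
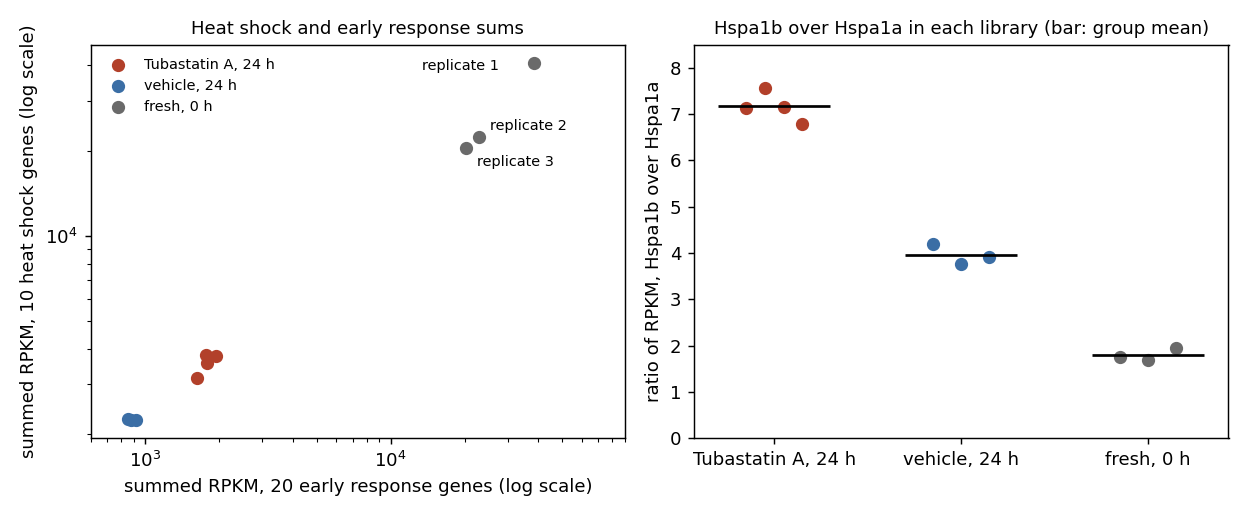
Left, summed RPKM of the 10 heat shock genes against that of 20 early response genes, 1 point per library on log scales; right, the ratio of Hspa1b to Hspa1a in each library with group means. Fresh replicate 1 is highest on both axes at left, and at right TubA libraries lie between 6.79 and 7.57, vehicle between 3.76 and 4.19 and fresh between 1.69 and 1.94.

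The other genes of the HSP70 system did not move as a block. Of 7 further genes of the HSP70 and HSP110 families measured, 3 rose in TubA against vehicle, 1 fell and 3 did not pass (median log2 change 0.12). The share that passed, 57.1%, is near the 59.3% of all genes. Hspa2, a form of HSP70 best known from the testis, averaged 20.3 ± 2.58 RPKM in TubA, 3.51 ± 0.272 RPKM in vehicle and 36.9 ± 4.99 RPKM in fresh cells, and rose by 2.23 in TubA against vehicle (adjusted p = 5.7e-08). Hspa4l, an HSP110, rose by 1.23 (adjusted p = 3.3e-05) and Hspa13, an HSP70 of microsomes, by 1.13 (adjusted p = 1.3e-04), while Hspa14, a ribosome-associated form, fell by 0.80 (adjusted p = 5.6e-04). Of these 7 genes 1 rose and 3 fell in vehicle against fresh, with Hspa2 at -3.06 and Hspa13 at -1.64, and 4 rose and 3 fell with equal reads per library. On the deposited scale the TubA means of Hspa2 and Hspa13 lay below the fresh means, with log2 changes of -0.83 and -0.51. Those of Hspa1a and Hspa1b in TubA against fresh were larger, at -6.65 and -4.69. Equal reads per library moved Hsp90ab1 in this comparison from -1.11 to -0.42, and values of Hspa2 and Hspa13 on that scale are not given here.

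J-domain proteins gave mixed results as well. Of 19 measured, 7 rose in TubA against vehicle, 2 fell and 10 did not pass (median 0.08), and in vehicle against fresh 5 rose, 9 fell and 5 did not pass (median -0.41), while 8 rose and 8 fell with equal reads per library. On the deposited scale 47.4% and 73.7% passed in these 2 comparisons, beside 59.3% and 67.0% of all genes. Dnaja4, a member of the DNAJA class, measured 11.3 ± 1.58 RPKM in TubA, 4.73 ± 0.30 RPKM in vehicle and 376 ± 193 RPKM in fresh cells, with a log2 change of -5.93 in vehicle against fresh (adjusted p = 3.2e-09). Dnajb4 fell by 3.66 and Dnaja1, a partner of HSPA8, by 2.63 in the same comparison. In TubA against vehicle Dnajb2, which carries ubiquitin-binding motifs, rose by 1.48 (39.7 ± 1.44 against 13.7 ± 1.52 RPKM, adjusted p = 7.3e-07). Dnajc6, or auxilin, which uncoats clathrin vesicles with HSPA8, measured 0.943 to 1.34 RPKM in TubA libraries and at most 0.0264 RPKM in vehicle libraries. Dnajc9, a histone chaperone, fell by 2.54 (10.2 ± 0.794 against 63.9 ± 5.03 RPKM, adjusted p = 2.5e-08).

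Among 10 other nucleotide exchange factors and regulators of HSP70, 2 rose with TubA against vehicle and 4 fell (median -0.27). Thus 60% passed, near the 59.3% of all genes, and in vehicle against fresh 70% passed, near 67.0%. St13, the HSP70-interacting protein Hip, rose by 0.48 (adjusted p = 1.4e-03), and Hspbap1, which binds HSPB1, rose by 0.49 (adjusted p = 9.4e-04). Hspbp1, an inhibitory exchange factor, fell by 0.60 (adjusted p = 1.2e-03), and Stub1, the ubiquitin ligase CHIP that marks HSP70 clients for degradation, fell by 0.50 (adjusted p = 3.6e-03). Against fresh, 7 of the 10 rose in vehicle and none fell (median 0.59), opposite in direction to Bag3; Bag2, which inhibits CHIP, rose by 1.52 (adjusted p = 2.3e-05).

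Of 18 HSP90 co-chaperones, 2 rose, 4 fell and 12 did not pass in TubA against vehicle (median 0.09), and with equal reads per library 7 rose and 4 fell. On the deposited scale 33.3% passed, beside 59.3% of all genes. Fkbp4, an immunophilin of steroid receptor complexes, fell by 1.03 (169 ± 4.02 against 345 ± 13.2 RPKM, adjusted p = 1.4e-05), whereas Ahsa2, related to the activator of the HSP90 ATPase, rose by 0.72 (adjusted p = 2.2e-03) and Cdc37l1 by 0.45 (adjusted p = 4.0e-03). Between vehicle and fresh 7 rose and 2 fell, and 14 rose and 1 fell with equal reads per library. Tomm70a, the import receptor that takes clients from HSP90 at mitochondria, rose by 1.54 and Nudc by 1.28, and Unc45a, a myosin chaperone, fell by 1.16 (adjusted p = 3.8e-06).

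Of 6 other small heat shock proteins measured, Cryab alone rose with TubA, 2 fell and 3 did not pass (median -0.01). Passing genes made up 50% of this list against vehicle, beside 59.3% of all genes. Cryab, the alpha B-crystallin of muscle and lens, measured 291, 317, 319 and 372 RPKM in TubA, 49.9, 51.3 and 53.9 RPKM in vehicle and 496, 727 and 488 RPKM in fresh libraries. On the deposited scale the groups did not overlap. The log2 change was 2.62 in TubA against vehicle (SE 0.16, adjusted p = 9.4e-08) and -3.41 in vehicle against fresh (adjusted p = 9.9e-09). TubA replicate 2, the library with 428 RPKM of summed myofibre markers, lay within the range of the other TubA libraries for Cryab, Hspb6 and Hspb11. For the low genes Hspb2, Hspb3 and Hspb7 it stood above them, at 5.15, 2.87 and 1.26 RPKM. The highest of the other TubA libraries had 2.44, 0.258 and 0.146 RPKM. The part of the myofibre signal in these levels was not tested. Hspb6 and Hspb11 (also known as an intraflagellar transport protein) were low, at 1.28 ± 0.278 and 1.40 ± 0.148 RPKM in TubA, against 2.38 ± 0.438 and 2.98 ± 0.226 RPKM in vehicle, and fell by 0.57 and by 0.73 (adjusted p = 2.8e-03 and 1.5e-03).

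RNA of the factor that switches on these genes had small log2 changes, whose sign against fresh cells depended on the scale. Hsf1 measured 25.1, 24.6, 23.0 and 23.7 RPKM in TubA, 27.2, 29.1 and 26.8 RPKM in vehicle and 31.3, 28.8 and 27.9 RPKM in fresh libraries. It did not pass in TubA against vehicle (log2 change -0.19, adjusted p = 0.085) or in vehicle against fresh (log2 change -0.08, adjusted p = 0.49), where equal reads per library turned the sign to 0.51. In TubA against fresh it fell by 0.27 (adjusted p = 0.020), and equal reads per library turned this call to a rise of 0.39 (adjusted p = 1.6e-03). Hsf2 was low but rose with TubA (0.985 ± 0.216 against 0.229 ± 0.0751 RPKM, log2 change 0.69, adjusted p = 6.8e-05), and Hsbp1, a small protein that binds HSF1, rose by 0.65 (adjusted p = 6.6e-03). Of the 5 genes measured in this list 2 rose, none fell and 3 did not pass in TubA against vehicle, and 1 fell with equal reads per library. On the deposited scale 40% passed, beside 59.3% of all genes. RNA levels do not report the activity of HSF1, which is regulated at the protein.

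Chaperones of other compartments were measured beside the cytosolic ones. In the endoplasmic reticulum, Hspa5, or BiP, measured 2454, 2034, 1297 and 2104 RPKM in TubA, 323, 344 and 275 RPKM in vehicle and 6624, 8729 and 8506 RPKM in fresh libraries, with no overlap. Its log2 change was 2.62 in TubA against vehicle (SE 0.26, adjusted p = 4.9e-06) and -4.65 in vehicle against fresh (adjusted p = 4.0e-08), and Hsp90b1, or GRP94, followed with 1.37 and -2.24. In mitochondria Trap1, an HSP90, fell by 0.66 in TubA against vehicle (adjusted p = 1.6e-04) and rose by 0.69 in vehicle against fresh. Of the 7 organelle chaperones, 2 rose, 2 fell and 3 did not pass in TubA against vehicle (median 0.01), and 2 rose, 3 fell and 2 did not pass in vehicle against fresh (median -0.26). These shares of 57.1% and 71.4% passing are near the 59.3% and 67.0% of all genes.

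Of 15 measured genes that tie HDAC6 to ubiquitin and protein quality control, 12 rose in TubA against vehicle, 2 fell and 1, Hdac6 itself, did not pass (median 1.48). The share that passed was 93.3%, beside 59.3% of all genes, in a list chosen with earlier results of these data known and with Hspb8 among the 12. Hdac6 measured 7.40, 6.33, 5.74 and 6.92 RPKM in TubA, 6.32, 6.36 and 5.80 RPKM in vehicle and 8.43, 6.67 and 7.97 RPKM in fresh libraries, so its cultured groups overlapped (log2 change 0.08, adjusted p = 0.58). The inhibitor acts on the protein, and these values check no label.

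Sqstm1, the autophagy receptor p62 that binds ubiquitin, measured 1541, 1509.7, 1441 and 1624 RPKM in TubA, 172, 177 and 184 RPKM in vehicle and 1178, 1902 and 1751 RPKM in fresh libraries. On the deposited scale the TubA libraries lay within the fresh range and far above vehicle. The log2 change was 3.10 in TubA against vehicle (SE 0.19, adjusted p = 1.1e-07) and -3.15 in vehicle against fresh (adjusted p = 9.4e-08). Ubb, which encodes polyubiquitin, followed a like course, at 2891 ± 480 RPKM in TubA, 546 ± 61.5 RPKM in vehicle and 4328 ± 1255 RPKM in fresh cells. Equal reads per library raise TubA relative to fresh, so the place of TubA beside fresh depends on the scale. Values of Sqstm1, Ubb and Cryab on that scale are not given here. Ufd1, which brings ubiquitinated proteins to the unfoldase VCP, resembled Hspb8 in that its TubA mean was highest, at 74.0 ± 7.46 RPKM against 19.1 ± 1.32 RPKM in vehicle (log2 change 1.90, adjusted p = 4.3e-07), with 31.5 ± 6.86 RPKM in fresh cells. Set against fresh, vehicle was higher for 4 of the 15 genes and lower for 9 (median -0.38), and with equal reads per library 5 rose and 4 fell.

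**Figure D4:**
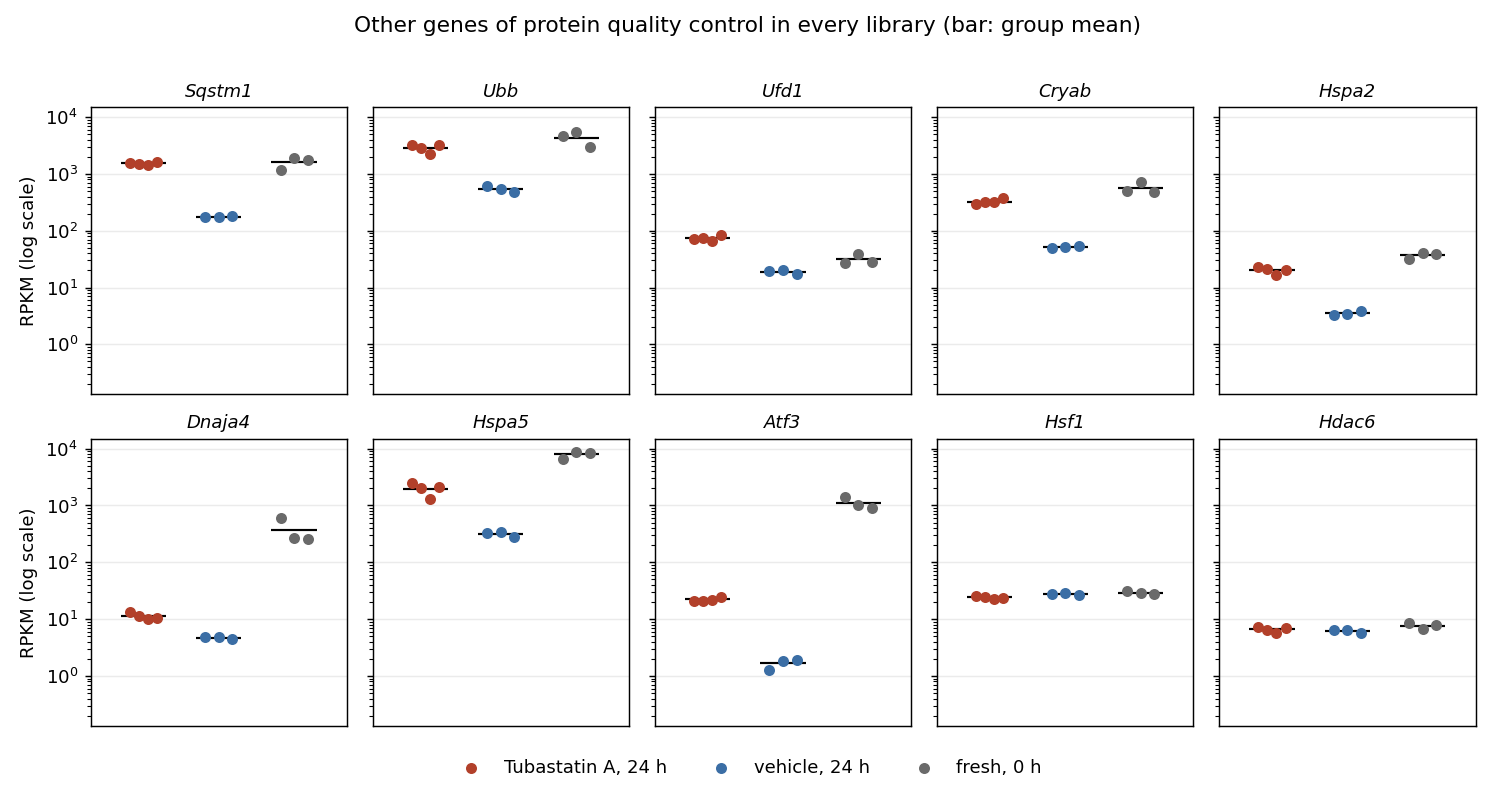
RPKM of 10 further genes of protein quality control and stress in each library on a log scale, with TubA left of vehicle and vehicle left of fresh; bars are group means. Sqstm1, Ubb, Cryab, Hspa2, Hspa5, Dnaja4, Atf3 and Ufd1 are lowest with vehicle. Ufd1 is highest with TubA, and Hsf1 and Hdac6 stay within 23.0 to 31.3 RPKM and 5.74 to 8.43 RPKM.

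Over the 10 libraries 9 of the 10 genes rose and fell with each other, with Pearson correlations of log2(RPKM + 1) from 0.87 (Hspa1b with Hsph1) to 0.9996 (Hspa1a with Bag3), whereas those of Hspb8 with the others lay between -0.33 (Hsph1) and 0.16 (Hspa1b). These values describe 10 libraries in 3 groups and largely restate the group means. Among 10096 genes with a mean log2 level of at least 1, the closest to Hspa1a and to Bag3 were Nppc, Egr1 and Atf3 (r of 0.998 to 0.999), and among the closest to Hspa1b were Mafk and Osgin1 (0.995). Hspb8 was most like Efna3, Gm10033 and Mkrn1 (0.991 to 0.993). For Dnajb1 they were Tfeb, Ppp1r15a and Cd83 (0.997), for Hspb1 Rassf1, Fos and Pnrc2 (0.996 to 0.997), and for Hsph1 Olfml2a, Socs3 and Col15a1 (at least 0.999). Hspa8 was closest to Gpm6b, Maged1 and Tifa (0.993 to 0.995), Hsp90aa1 to Vstm4, Chad and Ripply3 (0.990 to 0.994) and Hsp90ab1 to Ripply3, Zfp503 and Vstm4 (0.993 to 0.995).

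Ordered by mean level per length, Hsp90ab1 and Hspa8 led in both cultured groups, and their TubA means of 1135 ± 51.6 and 1129.9 ± 188 RPKM differed by less than their spread, whereas with vehicle Hsp90ab1 at 1029 ± 16.2 RPKM stood above Hspa8 at 696 ± 46.1 RPKM. In TubA, Hsp90aa1 (274 ± 8.75 RPKM), Dnajb1 (261 ± 39.0 RPKM) and Hspa1b (256 ± 31.9 RPKM) came next, apart by less than the larger SD, followed by Bag3, Hspb1 and Hspb8, then Hsph1 and last Hspa1a. With vehicle the order below Hspa8 was Hsp90aa1, Hspb1, Hsph1, Dnajb1, Bag3, Hspb8, Hspa1b and Hspa1a. In fresh cells Hspa1b had the highest mean, at 7193 ± 3813 RPKM, followed by Dnajb1, Hspa1a, Hspa8, Hspb1, Hsp90ab1, Bag3, Hsph1 and Hsp90aa1, and Hspb8 was last at 22.7 ± 3.39 RPKM. The inducible pair closed the order with vehicle. Neighbours whose means differed by less than the larger of their SDs were also Bag3 and Hspb1 in TubA and Hsph1 and Dnajb1 with vehicle. In fresh cells this held for each neighbouring pair from Hspa1b down to Hsp90ab1 and for Hsph1 with Hsp90aa1, so the order within these runs is not resolved. The order also depends on the length used, that of all annotated exons joined, 2999 bases for Hsp90ab1 and 4301 for Hspa8. In vehicle replicates 1 to 3 Hspa8 had 149842, 132306 and 123861 recovered reads, and Hsp90ab1 had 145563, 132780 and 140241.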

How the data were processed

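Per the labels' protocols, cDNA was amplified with SMART-Seq v4 from 5 ng of RNA, libraries were built with a NuGEN Ovation kit, and both ends were read for 150 bases. The submitters' processing notes name the build mm10 and the tools STAR, Trim Galore, edgeR, Subread and featureCounts; versions, settings, use of strand and treatment of reads that fit several genes are not given in the sources used here. The authors deposited 1 table of RPKM for 12803 genes and 10 libraries; the unit was inferred from the values. Of its genes 12682 (99.1%) matched a GENCODE M21 symbol, and RPKM times union exon length over 1 factor per library came to whole numbers, with a tolerance of 0.1 reads, in all libraries for 12245 genes (95.6% of the table), which include all 10 heat shock genes.

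The gene members and lists were chosen with earlier results of these data known. All genes were fitted as log2(RPKM + 1) with limma 3.58.1 in R 4.3.3 (variance trend, 1 model for 3 groups, no low-level filter), and p-values were adjusted over all genes. The fit was tested on simulated data with few changed genes and no difference in scaling. That test does not bear on the scale of the fresh libraries. Replicates were separate animals. Replicate numbers were not taken to pair the libraries, which would have needed a correlation of deviations over 0.1 in every same-number pair: 5 of 9 such pairs had one, as did 6 of 24 pairs of different number. Other genes are named by a rule: up to 3 with the lowest p per list in TubA against vehicle and in vehicle against fresh, and always Hdac6, Hsf1, Cryab, Sqstm1, Fos and Atf3; a gene so named may be given in any comparison. Likeness names the 3 genes of highest correlation per heat shock gene. Hspb3 and Hspb7 are named outside the rule, for their levels in TubA replicate 2. Coding sequences were aligned with biopython 1.88 in Python 3.11.15, with pandas 2.3.3 for tables. Alternatives were other pseudocounts, a filter, 3 other scalings, limma voom on recovered reads, a replicate block, 2-group fits, a stricter threshold, the summed Hspa1 pair and each library left out. A planned comparison of protein sequences was not made, and some genes that the rule names are not reported here.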

Additional observations from a re-analysis of the deposited data

How the results depend on the processing

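Each of the 30 log2 changes (10 heat shock genes in 3 comparisons) was recomputed under at least 20 alternatives, and 26 kept their direction and call in all of them; of 606 values 595 kept both, 10 lost the call, 1 gained it and none reversed. The number of the 10 genes called ranged from 5 to 7 in TubA against vehicle (6 as reported), and from 9 to 10 in vehicle against fresh and in TubA against fresh (10 as reported). Leaving out 1 library at a time gave 5 to 6, 10 and 10. With replicate number as a block the counts were 6, 10 and 10; the numbers were not taken to pair the libraries, and in 9 of 18 cases a library correlated best with its own number in another group. Hspa8 in TubA against vehicle was lost when 1 of 5 of the 7 libraries compared was left out and at an adjusted p under 0.01, Hsp90aa1 was gained in the 2-group fit, and Hspb8 in vehicle against fresh and Hsp90ab1 in TubA against fresh were lost with equal RPKM sums (log2 changes -0.06 and -0.39) and with equal reads (-0.05 and -0.42). Of 1684 values of other named genes 1595 kept direction and call, 46 lost it, 34 gained it and 9 reversed. The 9 were all in comparisons with fresh cells: Hsf1 in TubA against fresh (0.42 with equal RPKM sums, 0.39 with equal reads) and, in vehicle against fresh, Hsf1 (0.50 with equal RPKM sums, 0.51 with equal reads), Cdc37l1 (0.42 and 0.43), Hsbp1 (0.14 and 0.14) and, with equal RPKM sums alone, Hspb11 (0.36). Of 36 list counts 15 stayed within 1.5 times in every alternative, and 76 of 684 recomputed counts did not. Beyond the scaling, which shifts all genes, the cause of these changes was not tested. Each of the 10 genes had at least 331 recovered reads in every library, which bears on counting error only, since the cDNA was amplified.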
